A study of Drosophila melanogaster with 4 samples.

Results

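The zygotic cellularization genes are a set of 9 Drosophila genes, nullo, Sry-alpha, bnk, slam, halo, Bsg25D, SNCF, frs and term, that the early embryo itself transcribes around the time its surface folds inward to make cells. They were taken by name, and a spot was counted for a gene only if the array annotation gave that spot 1 gene, under its present symbol or an older one. By this rule 7 of the 9 genes were measured, out of 8240 genes with values on at least 3 arrays. For bnk and frs (now Z600), no spot met the rule, and they were not analysed here. Each of the 7 measured genes had 1 spot, with a value on all 4 arrays, so no gene had a second spot to compare it with. Bsg25D is now named Nin.

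Each of the 4 arrays compared total RNA of laser wounded embryos with that of unwounded embryos, both carrying the actin reporter sGMCA, collected at 0 to 1 h of age and frozen at once, the 0 min time point. Embryos of the wounded samples were wounded 8 times each, and those of the unwounded samples were handled alike without the laser. The study's flow chart draws pools of embryos, so 1 value averages over many embryos and cannot tell less RNA per embryo from fewer embryos that carry it. The arrays are called experiments 3, 4, 7 and 8. Experiment 4 was the dye swap, with wounded RNA in Cy5, and on the other 3 arrays wounded RNA was in Cy3.

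In the first nuclear cycles the Drosophila embryo is a syncytium that runs on mRNA and protein from the mother. A small set of zygotic genes is then switched on, many of them short. Some of their products stabilise the actin network at the tips of the ingrowing furrows, others supply membrane, move lipid droplets or stop the nuclear divisions so that cells can form. These roles are background and were not measured here. The embryos here were 0 to 1 h old, and the paper describes its model as a syncytial embryo with minimal zygotic transcription. The values therefore cannot be read as those of these genes during cellularization.

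The values are log2 ratios of both channels at a spot, normalized within each array by the authors. They hold no intensities, so neither the level of a transcript nor the presence of a marker gene could be checked, and a dim spot could not be told from a bright one. The direction of the ratio is not settled, since it could be that of the dyes (Cy5 over Cy3) or that of the samples (wounded over unwounded). All values by array are therefore given in the deposited sign. If they are Cy5 over Cy3, a value below 0 stands for more RNA in wounded than in unwounded embryos in experiments 3, 7 and 8, and for less in experiment 4. If they are wounded over unwounded, it stands for less RNA in wounded embryos on every array. Under either reading, experiments 7 and 8 ran the same way, as did experiment 3. The number of arrays limits the precision, and p-values cover the spread between these arrays, whose samples the methods call independent replicates and for which the labels name no separate cultures.

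The zygotic cellularization genes mostly shared a sign on single arrays but did not keep it across the arrays. Their ratios were below 0 for 7 of 7 genes in experiment 3 (57.1% of all genes) and for 7 of 7 in experiment 7 (47.3% of all genes). In experiment 8, which had the same dyes, 6 of 7 were above 0 and only slam was below it (53.9% of all genes were below 0). In experiment 4 they were below 0 for 5 of 7 (50.6% of all genes). A ratio below 0 in both experiment 3 and experiment 7 was found for 7 of 7 members and for 32.8% of genes. The median over the 7 genes was -0.31 and -0.44 in experiments 3 and 7, -0.07 in experiment 4 and 0.37 in experiment 8. Over all genes the medians were -0.03, -0.0023, 0.01 and -0.02 in experiments 3, 4, 7 and 8.

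**Figure D1:**
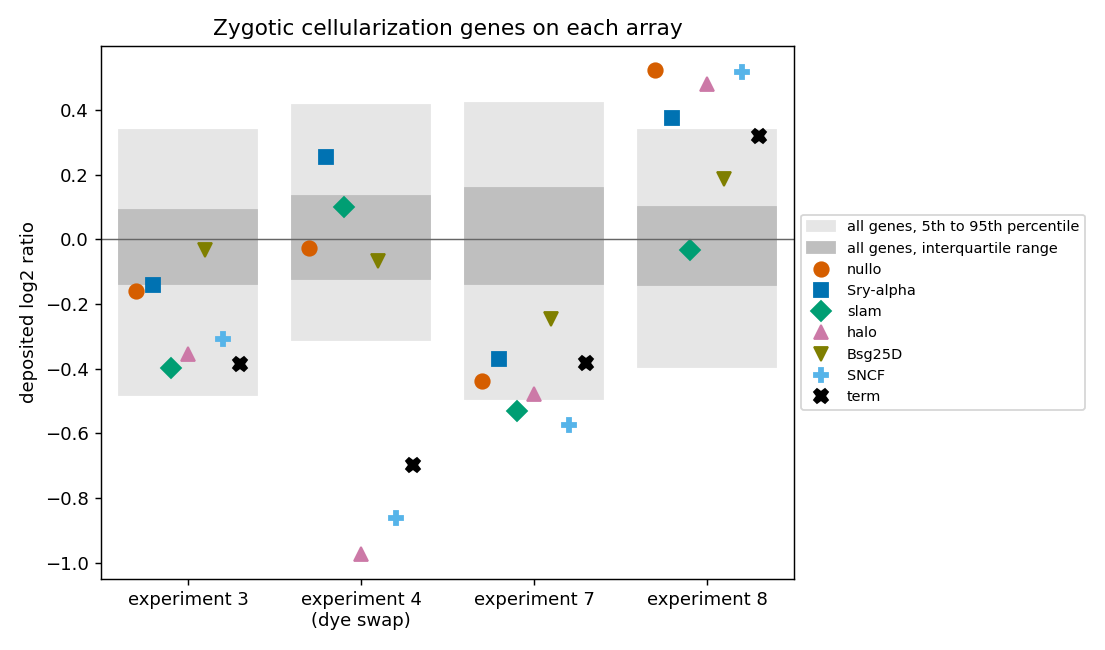
Deposited log2 ratio (y axis) of the 7 measured zygotic cellularization genes on each of the 4 arrays (x axis), 1 point per gene, with grey boxes for the 5th to 95th percentile and the interquartile range of all genes. All 7 points lie below 0 in experiments 3 and 7 and 6 of 7 lie above 0 in experiment 8, while halo, SNCF and term lie far below the others in experiment 4.

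Among the genes that act on the actin network of the furrows, nullo had ratios of -0.16, -0.03, -0.44 and 0.52 in experiments 3, 4, 7 and 8. The nullo protein sits at the furrow tips and keeps their actin in place. Its value in experiment 8 was above those of 97.9% of genes, and that in experiment 7 was above those of only 6.52%. Sry-alpha, which encodes a membrane-associated protein also needed for the actin network of the furrows, had ratios of -0.14, 0.25, -0.37 and 0.37 in the same order. The profile of Sry-alpha was the one closest to that of nullo among the members (Euclidean distance over the 4 arrays 0.325, smaller than this for 16.6% of all pairs of genes). They parted most in experiment 4, where Sry-alpha was above 0 and nullo was near 0. In both genes, experiments 7 and 8 lay at opposite ends, apart by 0.96 for nullo and 0.75 for Sry-alpha on the log2 scale.

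slam, whose product gathers at the furrow tips and drives membrane growth there, had ratios of -0.40, 0.10, -0.53 and -0.03 in experiments 3, 4, 7 and 8. It was the 1 member whose ratio was not above 0 in experiment 8, where it lay near the middle of all genes (45.5% of genes were lower). Its ratio in experiment 7 was nevertheless among the lowest (4.33% of genes were lower).

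halo, whose product directs the transport of lipid droplets along microtubules, had ratios of -0.35, -0.97, -0.48 and 0.48 in experiments 3, 4, 7 and 8. The value in experiment 4 was the largest in size of any member on any array, and only 5 of 8236 genes were lower there. SNCF had ratios of -0.31, -0.86, -0.57 and 0.52 in the same order, and 8 genes were lower in experiment 4. term, or terminus, a gene of the blastoderm also known as Bsg75C, had -0.39, -0.70, -0.38 and 0.32, and 18 genes were lower in experiment 4. These 3 genes thus had low ratios on the dye-swapped array as well as in experiments 3 and 7. halo and SNCF had the closest profiles of the 21 pairs of members (distance 0.158, smaller than this for 1.84% of pairs of genes), and term was at 0.331 from SNCF and 0.338 from halo. Over all 21 pairs of members, however, the median distance was 0.746, against 0.562 over all pairs of genes. Of the 21, 8 were closer than the median pair of genes. By this distance the members as a set were not closer in profile than genes at large. The distance grows with the size of the ratios as well as with disagreement between them, and the ratios of the members varied more. Their median SD over the 4 arrays was 0.404, against 0.177 over all genes.

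Bsg25D encodes a ninein-related protein of centrosomes. Its ratios of -0.03, -0.07, -0.25 and 0.19 in experiments 3, 4, 7 and 8 had the signs of nullo on each array and were the smallest in size of the set in experiments 3 and 7. Its SD over the 4 arrays, 0.178, was near the median over all genes, 0.177, whereas the median over the members was 0.404.

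The members split most clearly on the dye-swapped array. In experiment 4, halo, SNCF and term ranged from -0.97 to -0.70, and nullo, Sry-alpha, slam and Bsg25D from -0.07 to 0.25, with no overlap. A ratio of at least 1.5-fold in either direction was reached in experiment 4 by these 3 of 7 members and by 2.56% of all genes. In experiments 3, 7 and 8 it was reached by 0 of 7 members, against 5.47%, 5.06% and 3.33% of all genes. The SD among the members was 0.503 in experiment 4, and 0.143, 0.110 and 0.204 in experiments 3, 7 and 8. The same SD over all genes was 0.253 in experiment 4 and 0.337, 0.285 and 0.249 in experiments 3, 7 and 8. By the SD, the members lay closer to each other than genes at large on those 3 arrays and further apart on the dye-swapped one. The SD over all genes also counts extreme genes. These ran from -5.29 to 4.01 in experiment 3 and from -2.59 to 4.03 in experiment 8. The interquartile range of all genes was only -0.14 to 0.09 in experiment 3 and -0.14 to 0.10 in experiment 8. A closer grouping of the members in experiments 3 and 8 is therefore not settled. The split into 3 and 4 genes was seen in these values, so no test was made of it.

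**Figure D2:**
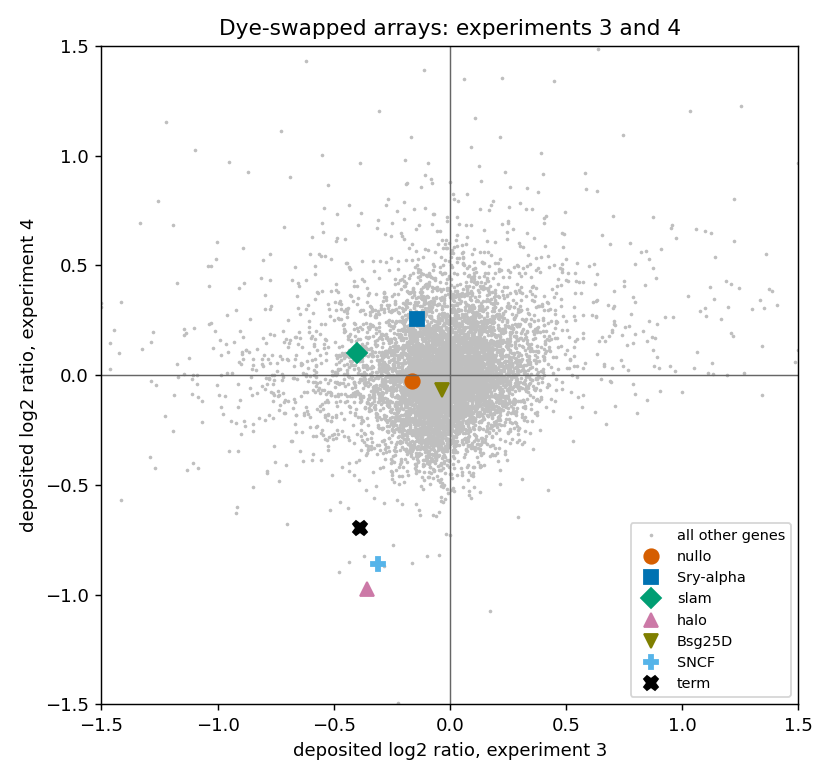
Deposited log2 ratio in experiment 4, the dye swap (y axis), against that in experiment 3 (x axis), with 1 grey dot for each of 8229 other genes and coloured marks for the 7 zygotic cellularization genes; 83 other genes lie outside the axes. halo, SNCF and term stand apart at the bottom left, and the remaining 4 genes lie left of 0 within the cloud.

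Experiments 7 and 8 carried the dyes the same way, so their opposite signs do not depend on how the ratio is read. The ratio in experiment 8 minus that in experiment 7 was 1.09 for SNCF, 0.96 for halo and nullo, 0.75 for Sry-alpha, 0.70 for term, 0.50 for slam and 0.43 for Bsg25D. A ratio at least 1.5-fold higher in experiment 8 than in experiment 7, on the linear scale and counted in this direction only, was found for 5 of 7 members and for 6.48% of all genes. The median difference was 0.75 over the members and -0.03 over all genes. A ratio below 0 in experiment 7 and above 0 in experiment 8 was found for 6 of 7 members and for 27.0% of genes, and one that was also below 0 in experiment 3 for the same 6 members and for 18.4% of genes. With experiment 4 below 0 as well, the counts were 5 of 7 members (nullo, halo, Bsg25D, SNCF and term) and 9.95% of genes. Each array was run once, so the difference between experiments 7 and 8 has no replicate check. Experiments 7 and 8 were also opposed over all genes. Over 8222 genes the Pearson correlation was -0.33 between experiments 7 and 8 and 0.29 between experiments 3 and 7, and over 11789 probes it was -0.29 and 0.31. Between experiments 3 and 8 it was weaker, -0.095 over genes and -0.037 over probes. Experiment 4 had correlations over genes of 0.12, -0.13 and -0.12 with experiments 3, 7 and 8. All genes of an array share its samples and dyes, and genes are not independent replicates.

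**Figure D3:**
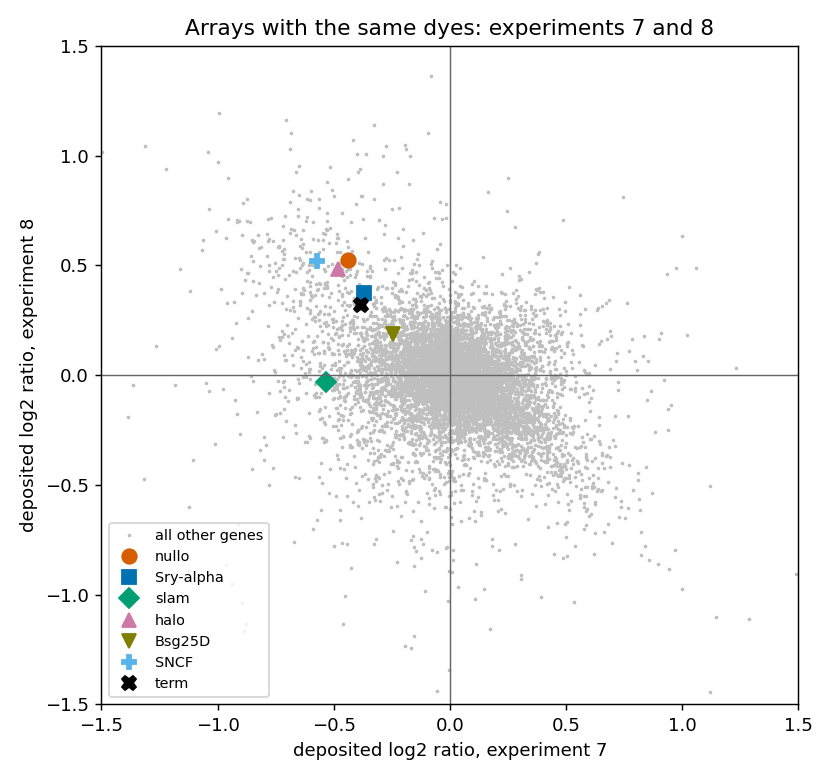
Deposited log2 ratio in experiment 8 (y axis) against that in experiment 7 (x axis), which have the same dyes, with 1 grey dot for each of 8219 other genes and coloured marks for the 7 zygotic cellularization genes; 20 other genes lie outside the axes. Of the members, 6 lie at the upper left and slam lies just below 0 on the y axis, within a cloud that runs from upper left to lower right.

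Across the 4 arrays, none of the members passed the study's threshold for a difference between wounded and unwounded embryos, a false discovery rate of 5% together with a mean of at least 1.5-fold in either direction. The test was limma over 8240 genes, once with the sign of experiment 4 turned, which is right for Cy5 over Cy3, and once with it kept, which is right for wounded over unwounded. Of all genes, 0 passed under either reading (0.00%), and of 11848 probes 0 passed as well. At an unadjusted p under 0.05 from limma there was 1 member of 7 with experiment 4 turned, slam (4.93% of genes). There were 0 of 7 with it not turned (2.51% of genes). Of probes, 5.87% and 2.97% reached that p. Without experiment 3, 4 or 7, slam no longer reached it (0 members each, beside 4.93%, 3.94% and 3.29% of genes with experiment 4 turned). All adjusted p-values of the members were 0.998 with experiment 4 turned and 0.997 with it not turned.

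With experiment 4 turned, the mean of slam in the deposited sign of the other arrays was -0.27 (SD 0.238, n = 4 arrays, limma adjusted p = 0.998). It was the 1 member with one sign on all 4 arrays under this reading, as were 12.0% of genes. With experiment 4 not turned, no member had one sign on all 4 arrays, and the mean of slam was -0.22 (SD 0.298, n = 4 arrays, limma adjusted p = 0.997). For halo the means were 0.16 (SD 0.693) with experiment 4 turned and -0.33 (SD 0.605) with it not turned. For SNCF they were 0.12 (SD 0.677) and -0.31 (SD 0.594), and for term 0.06 (SD 0.537) and -0.29 (SD 0.429). The sign of these 3 means therefore depended on the reading of the ratio, and each was smaller than the SD between arrays. nullo had means of -0.01 and -0.03, Sry-alpha of -0.10 and 0.03 and Bsg25D of -0.01 and -0.04, which were near 0 although single arrays of nullo and Sry-alpha were far from it.

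The intervals show how large a mean change could have gone unseen. With experiment 4 turned, the 95% confidence interval of the mean from limma, unadjusted per gene, lay within 1.5-fold in both directions for 5 of 7 members, against 92.2% of genes. With experiment 4 not turned it did so for 4 of 7 members and 91.9% of genes. For halo it reached from -0.46 to 0.77 with experiment 4 turned and from -0.88 to 0.22 with it not turned, and for SNCF from -0.48 to 0.73 and from -0.85 to 0.24. A change of 1.5-fold in halo or SNCF was thus not bounded under either reading, and one in term was not bounded with experiment 4 not turned (-0.69 to 0.12). The narrowest intervals were those of Bsg25D, from -0.22 to 0.21 and from -0.26 to 0.18.

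**Figure D4:**
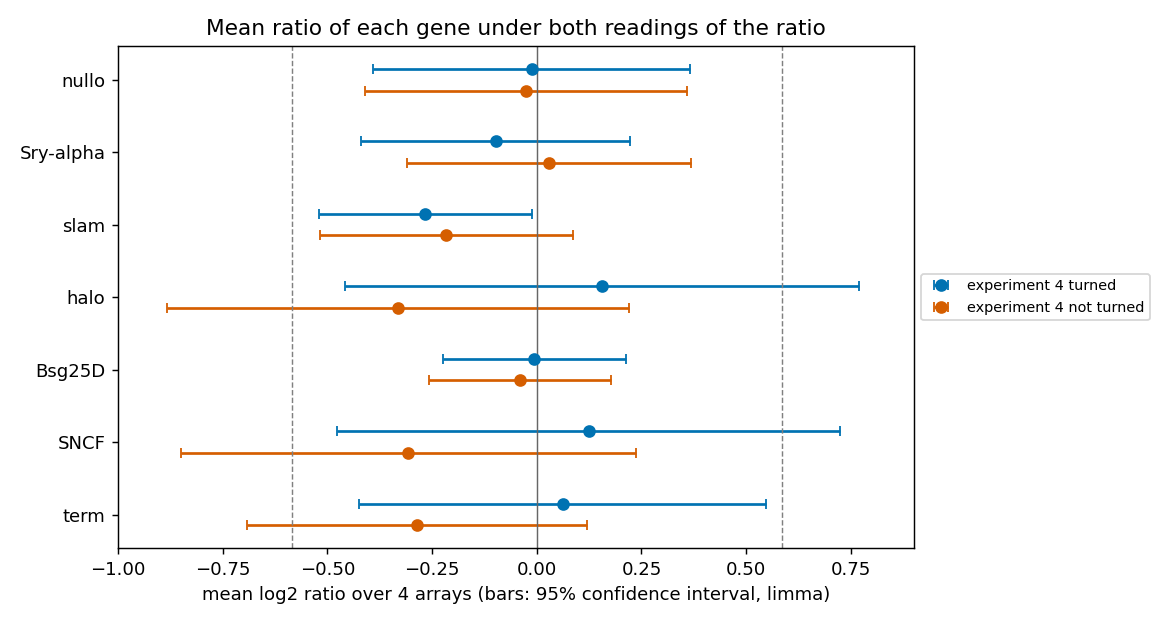
Mean log2 ratio over the 4 arrays (x axis) of each of the 7 zygotic cellularization genes (y axis), in the deposited sign of experiments 3, 7 and 8, with experiment 4 turned (blue, upper point) and not turned (orange, lower point); bars are 95% confidence intervals from limma and dashed lines mark 1.5-fold on both sides. The intervals of halo and SNCF cross a dashed line under both readings, and that of slam excludes 0 with experiment 4 turned only.

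Zygotic genes of other roles were set beside the members, from lists chosen by function. Of 24 named genes of early zygotic patterning, such as gap, pair-rule and dorsoventral genes, 14 were measured. Their median ratio was -0.21, -0.02, -0.59 and 0.34 in experiments 3, 4, 7 and 8. Like the members they were mostly below 0 in experiments 3 and 7 (13 and 12 of 14) and above 0 in experiment 8 (10 of 14). In experiment 7 odd, a pair-rule gene, had the lowest ratio of the list at -0.86, and in experiment 8 hry (hairy), also a pair-rule gene, had the highest at 0.76. dpp, which encodes a TGF-beta ligand, had the lowest ratio in experiment 8, -0.48, and ind, a homeobox gene of the neuroectoderm, the highest in experiment 7, 0.02. No patterning gene had a ratio in experiment 4 as low as those of halo, SNCF or term, the lowest being -0.33 for ind. A ratio below 0 in experiment 7 and above 0 in experiment 8 was found for 10 of 14. Of these genes 0 passed the study's threshold under either reading, and 1 had an unadjusted p under 0.05 from limma under each.

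The other zygotic genes of the blastoderm cell cycle and membrane growth, 8 measured of 10 named (Z600, which is frs, being one of those not measured), had medians nearer to 0 than the members in experiments 3, 7 and 8, at -0.10, -0.15 and 0.06. In experiment 4 it was 0.06. Of these, 5 of 8 were below 0 in experiment 7 and above 0 in experiment 8. Nrt, which encodes the adhesion protein neurotactin, had the lowest ratio in experiment 7, -0.44, and dnt the highest in experiment 8, 0.24. T48, a gene of apical constriction, had the highest ratio in experiment 7, 0.32, and mtrm, an inhibitor of Polo kinase, the lowest in experiment 8, -0.25. The cellularization machinery that the mother supplies, 15 measured of 27 named, had medians of -0.0012, -0.0066, -0.05 and -0.02 in experiments 3, 4, 7 and 8, and 5 of 15 were below 0 in experiment 7 and above 0 in experiment 8, beside 27.0% of all genes. In this list Abl, a tyrosine kinase, had the lowest ratio in experiment 7 (-0.60) and Grip71, a gamma-tubulin ring protein, the highest (0.13). chic, which encodes profilin, had the highest ratio in experiment 8 (0.48) and dia, a formin that nucleates actin in the furrows, the lowest (-0.47). None of the genes of these lists passed the study's threshold, and 1 of each had an unadjusted p under 0.05 from limma with experiment 4 turned. With it not turned, this held for 1 gene of the maternal machinery and for 0 of the other zygotic genes.

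**Figure D5:**
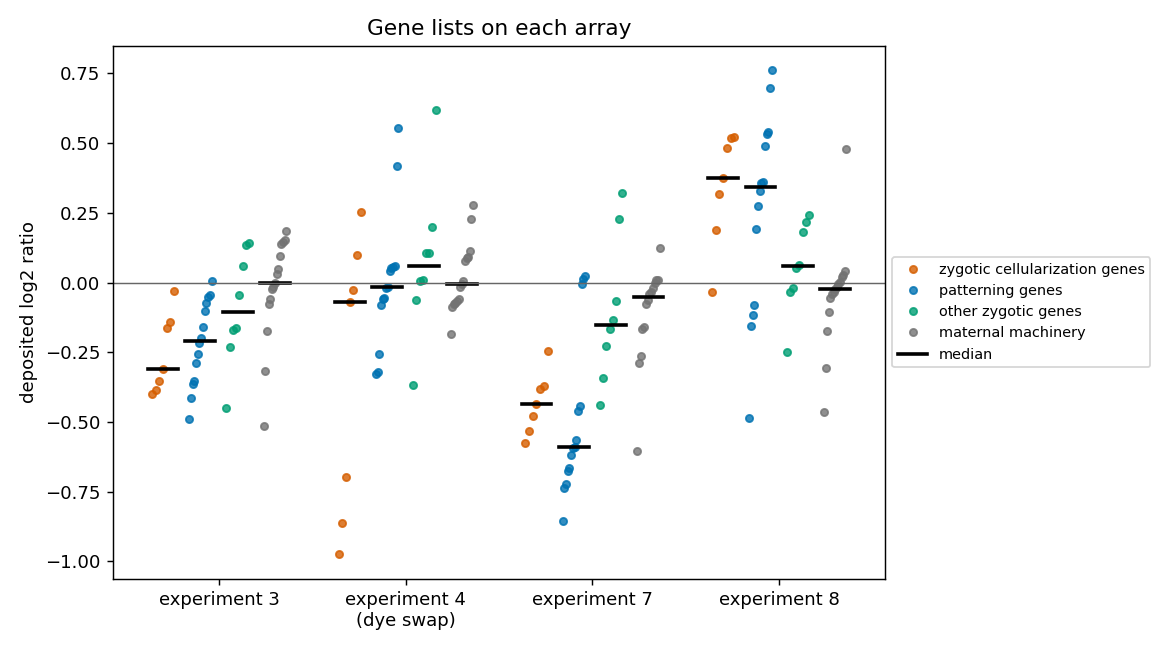
Deposited log2 ratio (y axis) of single genes on each array (x axis), for 7 zygotic cellularization genes (orange), 14 patterning genes (blue), 8 other zygotic genes (green) and 15 genes of the maternal machinery (grey), with a black bar at each median. The orange and blue medians lie on the same side of 0 in experiments 3, 7 and 8, at -0.44 and -0.59 in experiment 7 and 0.37 and 0.34 in experiment 8, and the grey medians lie near 0, the furthest from it at -0.05 in experiment 7.

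Genes of other cells or stages also differed between arrays. Of 5 maternal germ plasm mRNAs, 3 were measured. Their ratios were above 0 for 3 of 3 genes in experiment 3 and 2 of 3 in experiment 7. They were below 0 for 3 of 3 in experiment 4 and 2 of 3 in experiment 8. Of all genes, 57.1%, 50.6%, 47.3% and 53.9% were below 0 in experiments 3, 4, 7 and 8. With 3 genes, a count of 2 of 3 is therefore no result about them. The medians of the germ plasm mRNAs were 0.15, -0.17, 0.09 and -0.22 in experiments 3, 4, 7 and 8. They were opposite in sign to those of the members except in experiment 4. Of 7 markers of differentiated tissues of late embryos, 4 were measured. Mlc2, a muscle myosin light chain gene, had ratios of 3.46, 0.61, 0.77 and 0.11, and Tm2, a muscle tropomyosin gene, had 1.98, 0.53, 0.10 and -0.22 in experiments 3, 4, 7 and 8. elav, a neuronal gene, had -0.20, 0.62, -0.02 and 1.88, and nSyb, a synaptic vesicle gene, 0.07, 0.37, -0.17 and -0.07. In experiment 8, where the members were high, elav was also far above 0, and the other 3 ran from -0.22 to 0.11. Of 6 eggshell markers none was measured here. The part of these differences in the ratios of the members was not tested.

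Of genes outside the set with values on all arrays, the 6 whose ratios lay closest to the median profile of the members were CG11018, btd, Egfr, CG11791, Hk and CG14014, at Euclidean distances of 0.0612, 0.0836, 0.0951, 0.112, 0.147 and 0.153. Each was closer to it than any member, of which nullo was the nearest at 0.215 and halo the furthest at 0.915. The 6 were picked as the closest of all genes outside the set. That they lay closer than the members follows largely from this choice and is no result about the members. btd (buttonhead), a head patterning gene, had ratios of -0.36, -0.04, -0.41 and 0.32 in experiments 3, 4, 7 and 8, and Egfr, which encodes the epidermal growth factor receptor, had -0.26, -0.06, -0.41 and 0.45.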

How the data were processed

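Total RNA of wounded and unwounded embryos, 30 ug each, was labelled with both dyes and set on spotted cDNA clone arrays. The authors scanned the arrays and deposited log2 ratios of both channels, loess normalized within each array in limma of a version that the sources used here do not state. The methods remove dim and flagged spots as well, and it is unknown if the deposited values had passed that step.

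From 12144 spots, 160 control spots were left out. Of 11984 probes, 9917 had 1 gene symbol, 625 several and 1442 none listed. For 9746 the gene identifier was found in the RefSeq table of Release 6, and its symbol was used, whether or not it differed. Spots of a gene were averaged per array. The test was limma's moderated test (version 3.58.1, R 4.3.3, lmFit then eBayes) on genes and on probes that had values on at least 3 arrays. It was two-sided, and p-values were adjusted by Benjamini-Hochberg over all features. Means keep the deposited sign of experiments 3, 7 and 8. The fit was tested on simulated data, in which genes were independent and all added changes were larger than 1.5-fold. That check does not cover smaller changes or ratios correlated between arrays, as they were here. The alternatives were experiment 4 not turned, a dye term, median centring, scaling, values on all arrays only, the median of spots and leaving out each array. The members and lists were chosen with earlier results of these data known. The text names all members, the 6 genes nearest to their median profile, and of each list the highest and lowest gene in experiment 7 and in experiment 8.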

Additional observations from a re-analysis of the deposited data

How the results depend on the processing

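The members past the study's threshold were 0 under all 17 settings run, including each array left out (0 to 0), and their adjusted p from limma was at least 0.437 throughout. The probes past it were 0 except over values on all 4 arrays, where there were 2. Members with an unadjusted p under 0.05 numbered 0 with experiment 4 not turned, with a dye term and with each array centred, 0 to 2 when each array was left out with experiment 4 turned, the 2 being Sry-alpha and slam without experiment 8 (6.68% of genes) and the 0 without experiment 3, 4 or 7, and 0 to 3 with it not turned, the 3 being halo, SNCF and term without experiment 8 (6.41% of genes).

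The signs of 6 members' means turned under some setting, and that of slam under none. With experiment 4 not turned the means were 0.029 for Sry-alpha, -0.33 for halo, -0.31 for SNCF and -0.29 for term. With a dye term, centring and scaling, nullo had means of 0.00044, 0.000343 and 0.00114 and Bsg25D of 0.019, 0.00703 and 0.0031. The dye term gave 0.43 for halo, 0.37 for SNCF and 0.27 for term, against 0.16, 0.12 and 0.06 without it. Leaving out each array, the mean ran from -0.19 to 0.13 for nullo, -0.26 to -0.0070 for Sry-alpha, -0.34 to -0.18 for slam, -0.12 to 0.37 for halo, -0.070 to 0.075 for Bsg25D, -0.12 to 0.36 for SNCF and -0.15 to 0.21 for term. With experiment 4 not turned these ranges were -0.21 to 0.11, -0.086 to 0.16, -0.32 to -0.11, -0.60 to -0.12, -0.12 to 0.029, -0.58 to -0.12 and -0.49 to -0.15 in that order of genes, and the median over the members ran from -0.28 to -0.11, against -0.12 to 0.13 with experiment 4 turned.

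Because experiments 7 and 8 were opposed over all genes, experiment 8 was also turned against 3 and 7, a choice made after the data were seen. Neither reading of the ratio calls for it, since experiment 8 had the dyes of experiments 3 and 7. The members were known to change sign in experiment 8, so lower p-values follow in part from the turning and are no evidence of a difference. Members with an unadjusted p under 0.05 from limma then numbered 2 with experiment 4 turned (9.56% of genes), nullo at a mean of -0.27 and Sry-alpha at -0.29, and 4 with it not turned (10.8% of genes), nullo at -0.29 and halo, SNCF and term. The means of these last 3 were -0.085, -0.14 and -0.097 with experiment 4 turned, where none of them reached that p, and -0.57, -0.57 and -0.45 with it not turned (limma adjusted p = 0.437 for these 3). No paired analysis was possible because each array already sets a wounded against an unwounded sample and the arrays form 1 group. The search of promoters for motifs was not run. No intensities are held here, so what dim spots limit is unknown.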

Other observations

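The 20 genes with the lowest ratios in experiment 4 were listed after the data were seen. Of these, 5 were also below 0 in experiments 3 and 7 and above 0 in experiment 8, against 18.4% of all genes with that pattern in experiments 3, 7 and 8. They were halo, SNCF, term, CG4440 and link. Of the 5, 3 are members whose values had been seen before the list was made, and some of the 20 had no value in experiment 8. The count is therefore no evidence of an excess over all genes. CG4440 had ratios of -0.37, -0.83, -0.95 and 0.90 in experiments 3, 4, 7 and 8, and link of -0.24, -0.77, -0.997 and 0.97. Both were further from 0 than halo, SNCF and term in experiments 7 and 8.

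Genes next to the members on the chromosome, by the order of protein-coding genes in the RefSeq table of Release 6, were also looked up after the data were seen. Of 11 measured neighbours of the 9 genes, 3 were below 0 in experiment 7 and above 0 in experiment 8, a share near the 27.0% of all genes and so no result about the neighbours. CG14427, next to nullo, had ratios of -0.17, 0.11, -0.34 and 0.22 in experiments 3, 4, 7 and 8, with the signs of nullo except in experiment 4. Sry-beta and Sry-delta, which flank Sry-alpha, had 0.04 and 0.09 in experiment 7 and -0.11 and -0.02 in experiment 8, against -0.37 and 0.37 for Sry-alpha.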
